A study of Mus musculus with 12 samples.

Results

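The genes described here are targets of the hypoxia-inducible factors (HIFs) that act outside glycolysis, together with the HIF alpha subunits Hif1a and Epas1. The list holds 34 named genes, chosen with earlier results of these data in view. Each gene was read from the probe set that the array annotation assigns to it alone and that was brightest over all 12 arrays, so the mean level chose the probe set and is given here as a description only. Such a probe set existed for 32 of the 34 genes, among 18193 genes with one. Bnip3l and Loxl2 were only on probe sets shared with other genes and were not measured. Of the 32 genes, 27 had a mean log2 value at or above 5.55, the median of all probe sets other than controls, and were tested among 11070 genes. The other 5, the carbonic anhydrases Car9 and Car12, the lipoprotein receptor Vldlr, the glycogen-targeting phosphatase subunit Ppp1r3c and the nuclear receptor Rora, lay under that floor, and none of them passed in any comparison when the filter was dropped. Just inside it were Stc2 at a mean of 5.62 and Lox at 5.64, and just outside was Car9 at 5.11.

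The arrays held RNA of tumours grown in the cecum of C57BL/6 mice from MC38, a colon carcinoma line of C57BL/6 mice. All the cells carried an inducible hairpin (ishTDO2) against Tdo2, an enzyme of tryptophan breakdown. The 4 groups of 3 arrays were APC-KO tumours with doxycycline (Dox) in the drinking water, APC-KO tumours with no Dox, APC-WT tumours with Dox and APC-WT tumours with no Dox. No tumours with Dox and without the hairpin were analysed here, so the effects of the drug and of the hairpin cannot be told apart. The sources used here do not give the dose and duration of Dox, the age and sex of the mice, or whether the APC-KO cells were 1 clone. Nothing in the labels ties the 3 tumours of a group to different mice. The p-values here therefore reflect the scatter among these samples, part of which may be technical. No label gives a batch.

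HIFs are pairs of an oxygen-regulated alpha subunit and the stable partner Arnt. With oxygen present, prolyl hydroxylases of the Egln family mark the alpha subunit, and the Vhl ubiquitin ligase then has it degraded. When oxygen is short the alpha subunit accumulates, binds short DNA elements with the core ACGTG or GCGTG, and raises genes for vessel growth, turnover of mitochondria, collagen modification and lipid storage. This control acts mainly on the protein, and mRNA arrays do not read it. In a bulk tumour, fewer cells of a type and less RNA per cell cannot be told apart.

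Array medians lay between 5.535 and 5.576 on the log2 scale, and arrays of a group correlated at 0.995 to 0.998. Of 3 Apc probe sets above the floor, 2 were lower without Dox in APC-KO tumours relative to APC-WT, with differences of -0.84 ± 0.09 and -0.41 ± 0.11 (adjusted p = 1.11e-05 and 0.0172), and the other differed by -0.10 ± 0.07 (adjusted p = 0.382). Under Dox all 3 were lower in APC-KO tumours, in the same order by differences of -0.94 ± 0.09, -0.49 ± 0.11 and -0.24 ± 0.07. The adjusted p-values were 3.27e-06, 0.00607 and 0.0371 (limma over all probe sets). The sources used here do not give the deleted exons. The 3 Tdo2 probe sets lay under the floor, so they do not check the hairpin. RNA of host cells was present, with mean log2 values of 11.06 to 11.25 for 8 macrophage markers and 10.20 to 10.58 for 9 fibroblast markers over the arrays. Of the epithelial markers, Epcam, Krt8 and Cdh1 were above the floor, while Krt18, Krt19 and Cldn7 were under it.

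Windows of 300 bases around the annotated transcription starts were available for 25 of the 34 genes, from 250 bases before to 50 bases after each start (RefSeq sequences, build GRCm38.p6). The 4 windows below belong to the genes with the largest falls under Dox in APC-KO tumours, and the fifth to Hif1a, a factor subunit that did not pass there. Each is written from 5′ to 3′ along the gene's strand, and capitals mark every ACGTG or GCGTG on either strand, so CACGT and CACGC are matches on the opposite strand and overlapping matches run together. Ankrd37 lies at chr8:45999801-46000100 on the minus strand, Bnip3 at chr7:138909457-138909756 (minus), Mgarp at chr3:51396498-51396797 (minus), Egln3 at chr12:54203825-54204124 (minus) and Hif1a at chr12:73907617-73907916 (plus).
Ankrd37: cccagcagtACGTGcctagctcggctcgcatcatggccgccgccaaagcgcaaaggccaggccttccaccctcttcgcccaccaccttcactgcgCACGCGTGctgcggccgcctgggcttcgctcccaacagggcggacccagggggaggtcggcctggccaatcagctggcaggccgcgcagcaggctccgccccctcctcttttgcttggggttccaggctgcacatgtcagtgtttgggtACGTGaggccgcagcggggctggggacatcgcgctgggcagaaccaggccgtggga
Bnip3: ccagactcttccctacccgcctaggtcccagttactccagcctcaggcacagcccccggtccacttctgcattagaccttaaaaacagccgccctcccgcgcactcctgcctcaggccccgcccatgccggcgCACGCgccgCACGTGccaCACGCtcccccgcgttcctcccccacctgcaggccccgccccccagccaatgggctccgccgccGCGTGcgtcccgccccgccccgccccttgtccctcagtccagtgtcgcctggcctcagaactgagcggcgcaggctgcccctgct
Mgarp: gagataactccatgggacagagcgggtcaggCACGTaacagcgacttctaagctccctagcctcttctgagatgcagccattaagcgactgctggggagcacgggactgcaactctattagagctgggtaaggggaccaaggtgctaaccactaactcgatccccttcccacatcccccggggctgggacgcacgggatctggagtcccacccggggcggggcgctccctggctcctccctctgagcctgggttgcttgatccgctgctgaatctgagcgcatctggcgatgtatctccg
Egln3: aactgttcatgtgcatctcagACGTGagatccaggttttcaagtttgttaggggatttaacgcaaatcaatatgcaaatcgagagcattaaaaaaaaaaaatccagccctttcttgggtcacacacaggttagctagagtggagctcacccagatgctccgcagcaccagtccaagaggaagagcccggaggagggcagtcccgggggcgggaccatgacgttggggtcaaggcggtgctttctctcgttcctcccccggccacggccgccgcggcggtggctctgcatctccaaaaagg
Hif1a: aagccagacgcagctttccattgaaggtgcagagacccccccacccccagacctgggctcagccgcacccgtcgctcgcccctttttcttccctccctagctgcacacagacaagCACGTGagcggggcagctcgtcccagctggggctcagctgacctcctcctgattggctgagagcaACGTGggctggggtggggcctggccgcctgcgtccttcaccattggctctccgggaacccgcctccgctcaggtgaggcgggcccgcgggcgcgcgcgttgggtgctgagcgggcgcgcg

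In Bnip3 the 5 matches include CACGTG, a palindrome read as ACGTG on both strands, whose ACGTG copies begin at positions -108 and -107 from the start. Ankrd37 holds 4 matches, the nearest beginning at position -6. Mgarp and Egln3 hold 1 ACGTG each, beginning at -219 and -229. Hif1a holds 3, so a window with matches was found beside a gene that did not pass. Over the whole list, 28 of 36 windows (77.8%) held at least 1 match, against 49.3% of 21262 windows of protein-coding genes. ACGTG was in 52.8% of the list's windows and in 20.9% of all. The list's windows were richer in G and C, at a median of 64.5% against 56.3%, and the part of base composition in the difference was not tested. Among genes that fell under Dox in APC-KO tumours, 12 of 13 windows held a match, and among tested genes that did not pass there, 13 of 17. These windows belonged to 8 and 12 genes, and windows of 1 gene can overlap, as for Ak4. ACGTG alone went the other way, in 46.2% of the windows of the first genes and 58.8% of the second. A match describes the letters and does not show binding.

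Dox in APC-KO tumours went with lower levels of 10 of the 27 tested genes and with higher levels of none (limma, adjusted p under 0.05). Of all genes tested, 0.506% passed as lower and 0.0361% as higher in this comparison (0.542% in either direction). The 10 genes were Ankrd37, Bnip3, Mgarp, Egln3, Angpt2, Ndrg1, Hilpda, Adm, Ak4 and Pgf, with differences from -1.63 to -0.72 on the log2 scale. The median difference was -0.52 over the 27 genes and 0.002 over all genes. All 3 Dox arrays lay below all 3 no-Dox arrays for 23 genes, as they did for 9.67% of all genes tested, while for 8.08% all Dox arrays lay above. At an unadjusted p under 0.05 there were 23 of the 27 genes and 1446 of all 11070.

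The call rests on few arrays. Without APC-KO Dox replicate 3 no member passed, although the differences of the 10 genes were then -1.62 to -0.70, with adjusted p of 0.0523 to 0.157, and 24 of the 27 genes had an unadjusted p under 0.05. With that array left out, 1 of all 11070 genes passed in this comparison and 957 had an unadjusted p under 0.05. Without APC-KO no-Dox replicate 1, 3 members passed, and without APC-KO Dox replicate 2, 5 passed. Those 3 were Mgarp, Egln3 and Pgf, and the 5 were these with Ankrd37 and Bnip3. Over all 11070 genes, 4 and 14 passed as lower in these settings and none as higher, against 56 lower and 4 higher with all arrays. Omitting APC-KO no-Dox replicate 2 ended the call of Hilpda, omitting replicate 3 of that group or replicate 1 of the APC-KO Dox group that of Ak4, and omitting APC-WT Dox replicate 2 both. The call of Ak4 also ended when eBayes was run without a trend, and that of Adm when the compared groups alone were fitted.

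**Figure D1:**
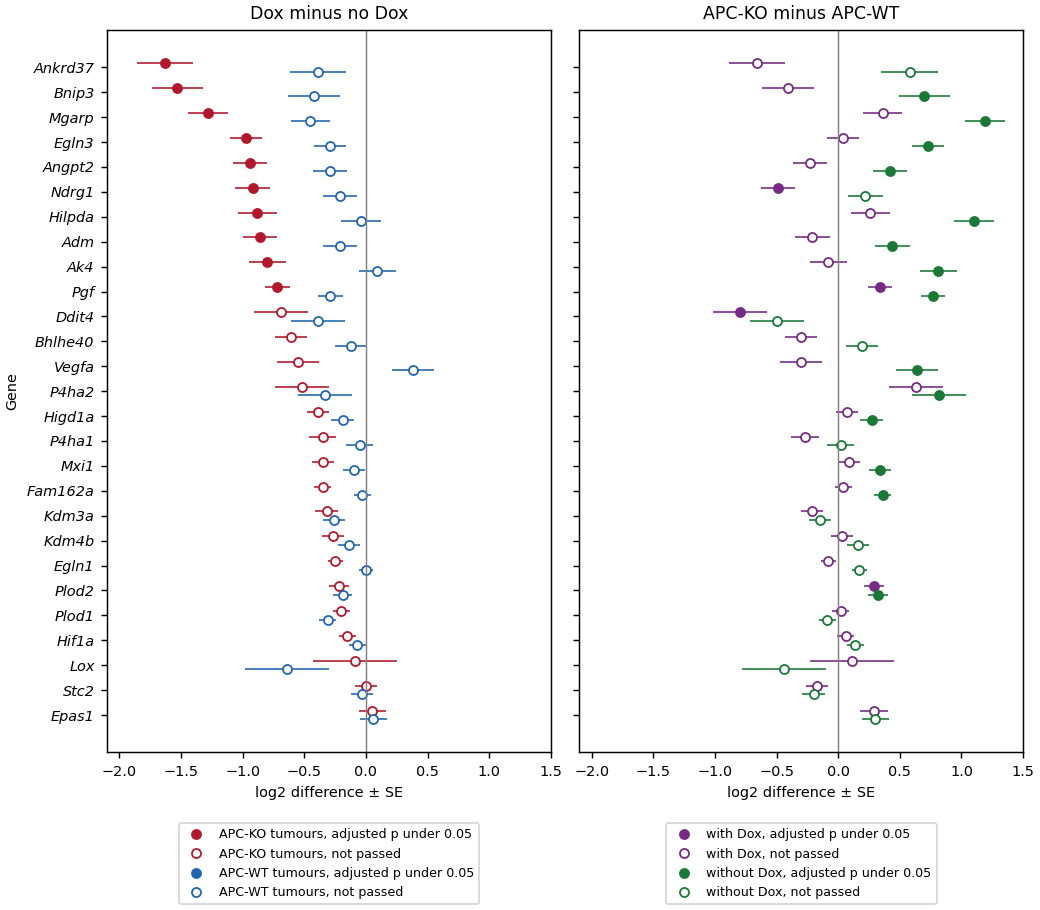
Log2 differences with their standard errors for the 27 tested genes, Dox minus no Dox on the left (APC-KO red, APC-WT blue) and APC-KO minus APC-WT on the right (with Dox purple, without Dox green), with filled points where adjusted p was under 0.05. The red points run down to -1.63 for Ankrd37 and the green points up to 1.19 for Mgarp, while no blue point is filled.

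Without Dox, APC-KO tumours had higher levels of 14 of the 27 genes than APC-WT tumours and lower levels of none that passed. Of all genes tested, 13.8% passed as higher and 11.1% as lower in this comparison, which is a high background. The 14 were Mgarp, Hilpda, P4ha2, Ak4, Pgf, Egln3, Bnip3, Vegfa, Adm, Angpt2, Fam162a, Mxi1, Plod2 and Higd1a, with differences of 0.27 to 1.19. The median difference was 0.32 over the 27 genes, against 0.011 over all genes. All APC-KO arrays lay above all APC-WT arrays for 14 genes and below them for 2, where 20.8% and 16.4% of all genes did so. This comparison and that of Dox in APC-KO tumours use the same 3 APC-KO no-Dox arrays, so they are not independent of each other, and each gene's values in both are given side by side. The count dropped to 8 when APC-KO no-Dox replicate 1 was left out and to 9 when APC-WT no-Dox replicate 2 was. Over all genes, 1130 and 1166 then passed as higher, against 1525 with all arrays. Omitting a no-Dox array ended the calls of Vegfa (APC-WT replicates 1 and 2, APC-KO replicate 2), P4ha2 (APC-WT replicate 1, APC-KO replicates 1 and 3), Mxi1 (APC-WT replicate 1, APC-KO replicates 1 and 2) and Higd1a (APC-WT replicates 1 and 2, APC-KO replicates 1 and 3). For Egln3, Mgarp, Fam162a, Ak4, Pgf, Plod2 and Hilpda the call held with each of the 12 arrays left out in turn and under each of the other settings in which the gene was tested.

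In APC-WT tumours, Dox changed none of the 27 genes by the same test, where 0.0271% of all genes passed (0.00903% higher and 0.0181% lower). The smallest adjusted p was 0.105, 7 of the 27 genes and 1716 of all had an unadjusted p under 0.05, and the median difference was -0.19 over the 27 genes against -0.008 over all. With array weights Pgf and Plod1 passed as lower, at -0.34 ± 0.08 and -0.30 ± 0.06 (adjusted p = 0.0347 and 0.0191), while the calls over all genes became 257 higher and 396 lower, against 1 and 2. When APC-WT no-Dox replicate 3 was omitted Plod1 also passed (-0.35 ± 0.07, adjusted p = 0.0268), where 102 of all genes were higher and 316 lower. With the compared groups alone Ddit4 passed (-0.39 ± 0.06, adjusted p = 0.0477). The Dox arrays lay below the no-Dox arrays for 7 genes and above them for none, against 10.3% and 11% of all genes. Under Dox, APC-KO tumours were higher than APC-WT tumours in 2 genes, Pgf and Plod2, and lower in 2, Ddit4 and Ndrg1. There 11.9% of all genes passed as higher and 7.99% as lower (19.9% in either direction), so these counts are near or below the background. The median difference was 0.02, and its sign differed between settings, over -0.06 to 0.03. Without APC-WT Dox replicate 3 no member passed, while 7 of the 27 genes and 2893 of all had an unadjusted p under 0.05. Without APC-WT Dox replicate 2, and without APC-KO Dox replicate 3, 1 gene passed, which was Ddit4. Without APC-WT no-Dox replicate 2 the count was 7, where 1294 of all genes were higher and 876 lower.

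Whether Dox acted differently in the 2 genotypes was tested by the interaction, the Dox difference in APC-KO minus that in APC-WT tumours. None of the 27 genes passed in limma, where 0% of all genes passed, and the smallest adjusted p was 0.202. At an unadjusted p under 0.05 there were 14 of the 27 genes and 1312 of all. The interaction was below 0 for 24 of the 27 genes, with a median of -0.30 against 0.009 over all genes, and was lowest for Ankrd37 at -1.24 ± 0.32, Bnip3 at -1.11 ± 0.30 and Vegfa at -0.93 ± 0.24 (adjusted p = 0.223, 0.237 and 0.226). Without APC-WT no-Dox replicate 3, Ak4, Bnip3 and Vegfa passed, at -1.08 ± 0.17, -1.33 ± 0.28 and -1.11 ± 0.23 (adjusted p = 0.0318, 0.0494 and 0.045). With that array left out, 74 of all 11070 genes passed as higher and 45 as lower. A difference between genotypes is therefore not shown by all 12 arrays together.

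Across the 4 groups, APC-KO tumours without Dox had the highest group mean for 21 of the 27 genes, a count not made over all genes. For 13 genes all 3 of their arrays lay above the other 9 arrays, which was so for 2.78% of all genes tested. The 13 were Hif1a, Egln1, Egln3, Mgarp, Fam162a, Ak4, Vegfa, Angpt2, Pgf, Adm, Plod2, Hilpda and Ankrd37. The margin was small for Hif1a, with a lowest value of 11.209 against 11.202, and for Egln1, with 9.287 against 9.267. The mean over the 27 genes of each gene's deviation from its own 12-array mean was -0.11, -0.36 and -0.20 in the APC-KO tumours given Dox and 0.41, 0.36 and 0.33 in those without it. For the APC-WT tumours it was -0.21, -0.12 and -0.16 with Dox and -0.04, -0.008 and 0.10 without. Each APC-KO no-Dox array thus held 23 to 25 of the 27 genes above their own mean, against 2 to 7 on the APC-KO Dox arrays, 4 to 9 with Dox in APC-WT and 9 to 20 without it. These counts too were not made over all genes.

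**Figure D2:**
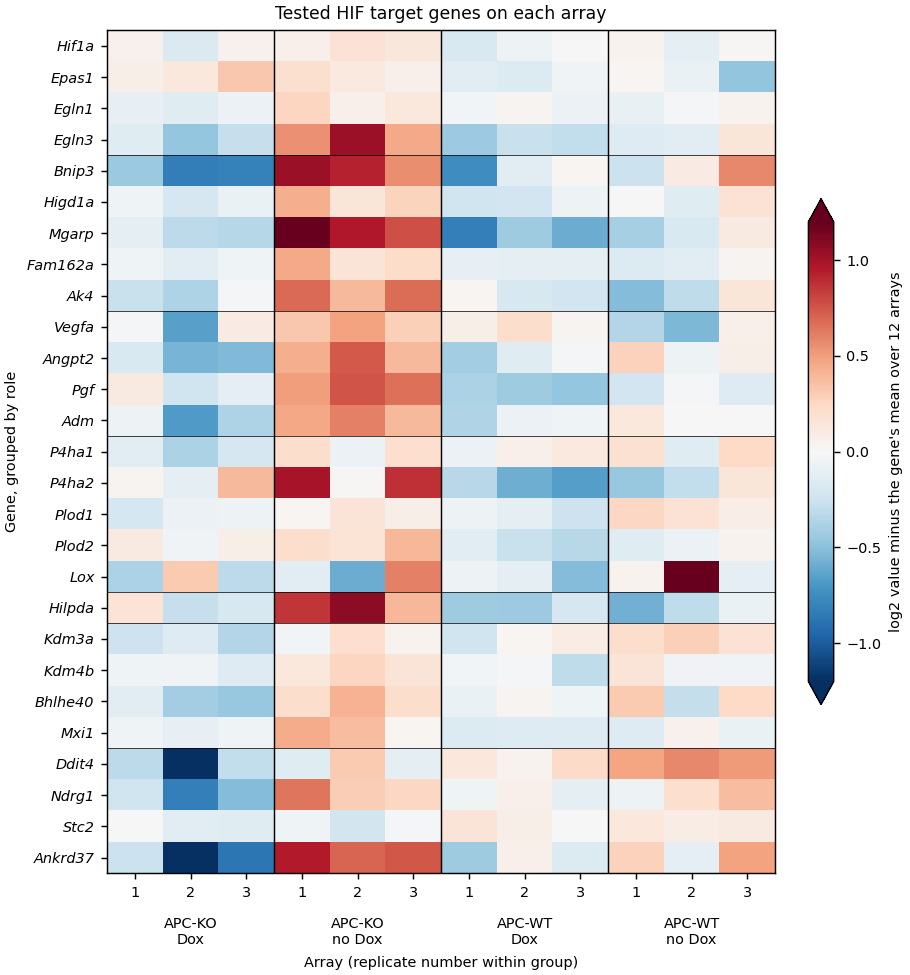
Log2 value minus the gene's mean over 12 arrays (colour, from -1.2 in blue to 1.2 in red) for the 27 tested genes in rows, grouped by role, with the 12 arrays in columns. The 3 APC-KO no-Dox columns are mostly red, with 23 to 25 of the 27 genes above their mean, and Lox is highest on 1 APC-WT no-Dox array.

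Of the 4 tested genes of oxygen sensing, Egln3 alone passed on its brightest probe set. Over all genes, 0.506% passed as lower for Dox in APC-KO tumours and 13.8% as higher for genotype without Dox. Egln3, a prolyl hydroxylase that is itself a HIF target and so feeds back on the pathway, had log2 values of 9.81, 9.50 and 9.68 in APC-KO tumours with Dox and 10.51, 10.99 and 10.41 without it. In APC-WT tumours it had 9.52, 9.69 and 9.66 with Dox and 9.81, 9.83 and 10.10 without. The 3 APC-KO no-Dox tumours stood above all the others and the other groups lay close together. Egln3 fell under Dox in APC-KO tumours (log2 difference -0.97 ± 0.13, adjusted p = 0.00781) and was higher without Dox in APC-KO tumours relative to APC-WT by 0.73 ± 0.13 (adjusted p = 0.0014). In APC-WT tumours its Dox difference was -0.29 ± 0.13 (adjusted p = 0.309).

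Hif1a, the alpha subunit that most cells use, had log2 values of 11.20, 10.98 and 11.20 in APC-KO tumours with Dox and 11.21, 11.32 and 11.29 without it, against 10.96, 11.08 and 11.15 with Dox and 11.19, 11.04 and 11.16 without it in APC-WT tumours. All these values lay within a narrow band, and its differences of -0.15 ± 0.07 for Dox in APC-KO and 0.14 ± 0.07 for APC-KO over APC-WT without Dox did not pass (adjusted p = 0.386 and 0.147). A dimmer Hif1a probe set, at a mean of 7.00, differed by 0.49 ± 0.14 for APC-KO over APC-WT without Dox (adjusted p = 0.0249, limma over all probe sets). Another, at 9.16, differed by 0.03 ± 0.09. Epas1, the alpha subunit prominent in endothelium and macrophages, averaged 9.04 ± 0.13 in APC-KO tumours with Dox and 8.99 ± 0.07 without it (SD), against 8.75 ± 0.06 with Dox and 8.69 ± 0.26 without it in APC-WT tumours. It differed by 0.05 ± 0.11 for Dox in APC-KO and 0.30 ± 0.11 for genotype without Dox (adjusted p = 0.888 and 0.0551). Egln1, the main prolyl hydroxylase in most cells, differed by -0.25 ± 0.06 and 0.17 ± 0.06 (adjusted p = 0.103 and 0.0625).

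Of the 5 tested genes of mitochondria and mitophagy, 3 fell under Dox in APC-KO tumours and all 5 were higher in APC-KO tumours without Dox. Of all genes tested, 0.506% and 13.8% passed in these directions. Bnip3, a receptor on the outer mitochondrial membrane that marks mitochondria for autophagy, had 9.23, 8.84 and 8.86 in APC-KO tumours with Dox and 10.71, 10.59 and 10.23 without it. In APC-WT tumours the values were 8.92, 9.55 and 9.70 with Dox and 9.41, 9.77 and 10.24 without. The APC-KO groups lay more than 1 log2 unit apart, whereas the highest APC-WT no-Dox tumour was level with the lowest APC-KO no-Dox one. Bnip3 fell 2.9-fold under Dox in APC-KO tumours (-1.53 ± 0.21, adjusted p = 0.00861) and was 0.70 ± 0.21 higher in APC-KO tumours without Dox (adjusted p = 0.028). The genotype call was lost without no-Dox replicate 1 or 2 of either genotype.

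Mgarp, a mitochondrial protein of hypoxic cells linked to mitochondrial transport, had 6.72, 6.52 and 6.48 in APC-KO tumours with Dox and 8.18, 7.78 and 7.60 without it. The APC-WT tumours had 6.00, 6.40 and 6.23 with Dox and 6.42, 6.64 and 6.94 without. No value of any other group reached the APC-KO no-Dox range. Mgarp fell under Dox in APC-KO tumours (-1.28 ± 0.16, adjusted p = 0.00631) and was 1.19 ± 0.16 higher in APC-KO tumours without Dox (adjusted p = 0.000141), the largest genotype difference of the list. Its Dox difference in APC-WT tumours, -0.45 ± 0.16, did not pass (adjusted p = 0.199), though the Dox values all lay below the no-Dox values.

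Ak4, an adenylate kinase of the mitochondrial matrix, had 6.25, 6.14 and 6.50 in APC-KO tumours with Dox and 7.20, 6.91 and 7.19 without it, against 6.54, 6.33 and 6.28 with Dox and 6.00, 6.21 and 6.66 without it in APC-WT tumours. Only the APC-KO no-Dox tumours stood apart, and they did so from all 9 others. The fall under Dox was -0.80 ± 0.15 (adjusted p = 0.033), and APC-KO tumours without Dox were higher by 0.81 ± 0.15 (adjusted p = 0.00191). Fam162a, a mitochondrial membrane protein tied to hypoxic cell death, had 10.20, 10.14 and 10.20 in APC-KO tumours with Dox and 10.71, 10.42 and 10.48 without it, and 10.16, 10.14 and 10.14 with Dox and 10.09, 10.13 and 10.30 without it in APC-WT tumours. The APC-KO no-Dox tumours lay above all the others. The Dox difference of -0.35 ± 0.07 did not pass (adjusted p = 0.0514), and the genotype difference without Dox was 0.36 ± 0.07 (adjusted p = 0.00315). Higd1a, of the inner mitochondrial membrane, had 10.11, 9.96 and 10.08 in APC-KO tumours with Dox and 10.60, 10.31 and 10.43 without it, against 9.93, 9.93 and 10.10 with Dox and 10.16, 10.02 and 10.34 without it in APC-WT tumours. One APC-WT no-Dox tumour lay within the APC-KO no-Dox range, and the genotype difference was 0.27 ± 0.09 (adjusted p = 0.037). With the mean of its probe sets it was 0.12 ± 0.09 (adjusted p = 0.342), and the call also ended without a trend and with the compared groups alone. The Dox difference in APC-KO, -0.39 ± 0.09, did not pass (adjusted p = 0.0736).

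Of the 4 genes of vessel growth and tone, 3 fell under Dox in APC-KO tumours and all 4 were higher in APC-KO tumours without Dox. Of all genes tested, 0.506% and 13.8% passed in these directions. The genotype calls of Vegfa, Angpt2 and Adm each ended when certain single arrays were left out. Pgf, placental growth factor, a ligand of the receptor Flt1, had 7.19, 6.84 and 6.97 in APC-KO tumours with Dox and 7.58, 7.84 and 7.74 without it. In APC-WT tumours it had 6.70, 6.66 and 6.62 with Dox and 6.86, 7.07 and 6.93 without. The groups ranked APC-KO no Dox, then APC-KO Dox and APC-WT no Dox with overlapping ranges, then APC-WT Dox. Pgf fell under Dox in APC-KO tumours (-0.72 ± 0.10, adjusted p = 0.00781), and was higher in APC-KO tumours by 0.77 ± 0.10 without Dox and 0.34 ± 0.10 with it (adjusted p = 0.000101 and 0.0249).

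Vegfa, the main growth factor of endothelial cells, had 9.18, 8.55 and 9.30 in APC-KO tumours with Dox and 9.52, 9.68 and 9.48 without it, against 9.27, 9.42 and 9.24 with Dox and 8.85, 8.66 and 9.27 without it in APC-WT tumours. One APC-KO Dox tumour was far below its 2 companions, and in APC-WT tumours the ranges with and without Dox overlapped. Vegfa was higher in APC-KO tumours without Dox by 0.64 ± 0.17 (adjusted p = 0.0152). Its Dox differences of -0.55 ± 0.17 in APC-KO and 0.38 ± 0.17 in APC-WT tumours did not pass (adjusted p = 0.19 and 0.303). A second Vegfa probe set, with a mean of 7.74, did pass for Dox in APC-KO tumours, at -0.85 ± 0.17 (adjusted p = 0.0391 over all probe sets), so the call for Vegfa turns on the probe set.

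Angpt2, a ligand of the endothelial receptor Tek that loosens vessels, had 6.03, 5.66 and 5.69 in APC-KO tumours with Dox and 6.65, 6.96 and 6.60 without it, and 5.80, 6.07 and 6.21 with Dox and 6.50, 6.15 and 6.29 without it in APC-WT tumours. Adm, the precursor of the vasodilator adrenomedullin, had 6.06, 5.45 and 5.75 in APC-KO tumours with Dox and 6.59, 6.73 and 6.51 without it, and 5.76, 6.05 and 6.07 with Dox and 6.25, 6.13 and 6.12 without it in APC-WT tumours. For both genes the APC-KO no-Dox tumours lay above all the others. Both were dim, and 1 APC-KO Dox value of Adm lay under the floor of 5.55. Angpt2 and Adm fell under Dox in APC-KO tumours, with differences of -0.94 ± 0.14 and -0.86 ± 0.14 (adjusted p = 0.00995 and 0.0113). They were higher in APC-KO tumours without Dox by 0.42 ± 0.14 and 0.44 ± 0.14 (adjusted p = 0.0391 and 0.0281). Among the no-Dox arrays, omitting APC-KO replicate 1, APC-KO replicate 2, APC-WT replicate 2 or APC-WT replicate 3 ended both genotype calls, and omitting APC-WT Dox replicate 2, dropping the filter or adding a replicate block ended that of Angpt2.

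**Figure D3:**
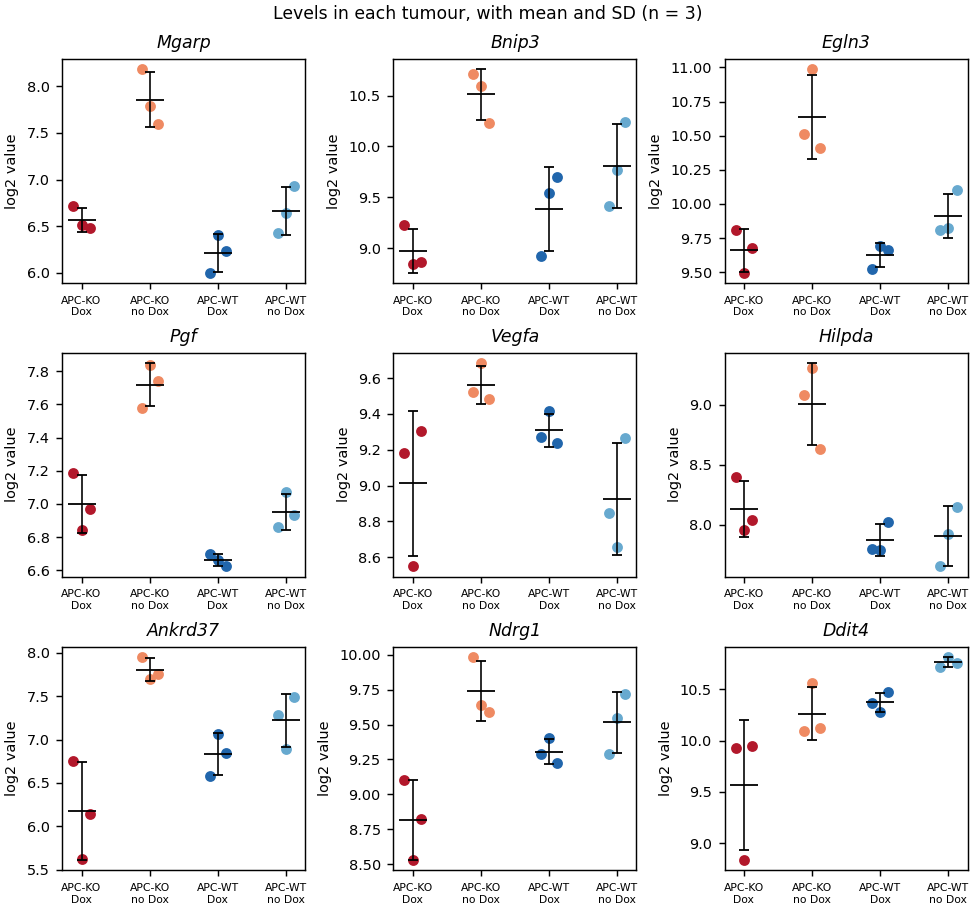
Log2 values of 9 genes in each tumour (points), with the mean and SD of the 3 tumours per group (bars), for APC-KO Dox, APC-KO no Dox, APC-WT Dox and APC-WT no Dox from left to right. In Mgarp, Egln3, Pgf and Hilpda the APC-KO no-Dox tumours stand above the other 9, while Ddit4 is highest in APC-WT tumours without Dox.

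Hilpda, a lipid droplet protein that restrains triglyceride breakdown, was the one tested gene of lipid and glycogen storage. It had 8.40, 7.96 and 8.04 in APC-KO tumours with Dox and 9.08, 9.30 and 8.63 without it, against 7.80, 7.79 and 8.03 with Dox and 7.65, 7.92 and 8.15 without it in APC-WT tumours. All APC-KO no-Dox values exceeded all others. Hilpda fell under Dox in APC-KO tumours (-0.88 ± 0.16, adjusted p = 0.0325), a call that 10 of 20 alternatives ended, 5 of them left-out arrays, and was 2.14-fold higher in APC-KO tumours without Dox (1.10 ± 0.16, adjusted p = 0.000376).

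None of the 5 tested matrix enzymes passed for Dox in APC-KO tumours, and 2, P4ha2 and Plod2, were higher in APC-KO tumours without Dox. In the second comparison 13.8% of all genes tested passed as higher. P4ha2, a catalytic subunit of the prolyl hydroxylase of collagen, had 7.62, 7.49 and 7.98 in APC-KO tumours with Dox and 8.58, 7.60 and 8.47 without it, and 7.26, 7.00 and 6.93 with Dox and 7.14, 7.30 and 7.74 without it in APC-WT tumours. APC-KO no-Dox replicate 2 lay within the range of the other groups, and the genotype difference without Dox was 0.82 ± 0.22 (adjusted p = 0.0154). Under Dox every APC-KO value lay above every APC-WT value, but the difference of 0.63 ± 0.22 did not pass (adjusted p = 0.0609).

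Plod2, a lysyl hydroxylase that prepares collagen for crosslinking, had 8.92, 8.77 and 8.89 in APC-KO tumours with Dox and 9.03, 8.98 and 9.22 without it, against 8.69, 8.55 and 8.48 with Dox and 8.67, 8.75 and 8.86 without it in APC-WT tumours. The genotypes did not overlap under either condition, with differences of 0.32 ± 0.08 without Dox and 0.29 ± 0.08 with it (adjusted p = 0.011 and 0.0206), the second a call that ended with quantile normalization. A second Plod2 probe set, at a mean of 8.56, fell under Dox in APC-KO tumours (-0.46 ± 0.07, adjusted p = 0.0117 across all probe sets), where the brighter one differed by -0.22 ± 0.08 (adjusted p = 0.26). Lox, the extracellular enzyme that crosslinks collagen, had 5.26, 5.96 and 5.33 in APC-KO tumours with Dox and 5.52, 5.05 and 6.25 without it, and 5.58, 5.52 and 5.13 with Dox and 5.69, 6.92 and 5.53 without it in APC-WT tumours. Most of its values lay under the floor and 1 APC-WT no-Dox value stood far above the rest, so its Dox difference in APC-WT tumours, -0.64 ± 0.34, rested on that tumour and shrank to -0.20 without it. P4ha1, the other collagen prolyl hydroxylase subunit, and Plod1 differed by -0.35 ± 0.11 and -0.20 ± 0.07 for Dox in APC-KO tumours and did not pass.

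Among the 4 regulators of chromatin and transcription none passed for Dox in APC-KO tumours and Mxi1 was higher in APC-KO tumours without Dox, where 13.8% of all genes passed as higher. Mxi1, an antagonist of Myc, had 8.76, 8.72 and 8.76 in APC-KO tumours with Dox and 9.26, 9.18 and 8.84 without it, and 8.65, 8.65 and 8.66 with Dox and 8.66, 8.87 and 8.73 without it in APC-WT tumours. APC-KO no-Dox replicate 3 lay within the APC-WT no-Dox range, and the difference was 0.34 ± 0.09 (adjusted p = 0.0148), a call that ended with array weights and with the compared groups alone. Bhlhe40, a transcriptional repressor, differed by -0.61 ± 0.13 for Dox in APC-KO tumours (adjusted p = 0.0623). The histone demethylases Kdm3a and Kdm4b differed by -0.32 ± 0.09 and -0.27 ± 0.09 there (adjusted p = 0.143 and 0.241).

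Of the 4 tested genes of stress and growth control, Ankrd37 and Ndrg1 fell under Dox in APC-KO tumours and none passed as higher in APC-KO tumours without Dox. The shares of all genes in these directions were 0.506% and 13.8%. Ankrd37, an ankyrin repeat protein, had 6.75, 5.62 and 6.14 in APC-KO tumours with Dox and 7.96, 7.70 and 7.76 without it, and 6.58, 7.07 and 6.85 with Dox and 7.28, 6.89 and 7.49 without it in APC-WT tumours. The APC-KO Dox tumours spread widely, over more than 1 log2 unit, yet all lay below the no-Dox ones, and the fall of -1.63 ± 0.23 was the largest of the list (3.1-fold, adjusted p = 0.00861). Its genotype differences were 0.58 ± 0.23 without Dox and -0.66 ± 0.23 with it (adjusted p = 0.0738 and 0.0551). Without APC-KO Dox replicate 2, its lowest tumour, the difference with Dox was -0.38 ± 0.20 (adjusted p = 0.227), and without replicate 1 it passed, at -0.95 ± 0.19 (adjusted p = 0.00499).

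Ndrg1, a stress-responsive protein linked to growth arrest, had 9.10, 8.53 and 8.82 in APC-KO tumours with Dox and 9.99, 9.64 and 9.59 without it, against 9.29, 9.40 and 9.23 with Dox and 9.29, 9.55 and 9.72 without it in APC-WT tumours. The APC-KO Dox tumours were the lowest, below every other tumour. Ndrg1 fell under Dox in APC-KO tumours (-0.92 ± 0.14, adjusted p = 0.00995) and under Dox was lower in APC-KO tumours relative to APC-WT (-0.49 ± 0.14, adjusted p = 0.0263), while without Dox the difference was 0.22 ± 0.14 (adjusted p = 0.27).

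Ddit4, an inhibitor of mTOR signalling, had 9.93, 8.84 and 9.95 in APC-KO tumours with Dox and 10.10, 10.56 and 10.13 without it, and 10.36, 10.28 and 10.47 with Dox and 10.72, 10.82 and 10.75 without it in APC-WT tumours. Its 3 highest values were those of the APC-WT tumours without Dox, and 1 APC-KO Dox tumour lay over 1 log2 unit below its companions. Under Dox it was lower in APC-KO tumours (-0.80 ± 0.22, adjusted p = 0.0205), and without that tumour, APC-KO Dox replicate 2, the difference was -0.44 ± 0.11 (adjusted p = 0.0213). Its other differences were -0.50 ± 0.22 for genotype without Dox, -0.69 ± 0.22 for Dox in APC-KO and -0.39 ± 0.22 for Dox in APC-WT tumours (adjusted p = 0.114, 0.197 and 0.412). Stc2, a secreted glycoprotein, lay near the floor in all groups and differed by 0.00 ± 0.09 for Dox in APC-KO tumours.

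Above the floor of 5.55 there were 16 further probe sets, of 12 genes. They had the sign of the brightest one in 16 of 16 cases for Dox in APC-KO tumours. The same held in 16 for APC-KO over APC-WT without Dox and in 16 for the interaction. Further probe sets under the floor were not counted, and some of them had the opposite sign. For Dox in APC-WT tumours and for genotype under Dox the sign matched in 9 and 10. With p-values adjusted over all probe sets, 8 of the 16 passed for Dox in APC-KO tumours. Among them were 4 further probe sets of Ndrg1, at -1.14 to -0.91, a second of Egln3 at -0.89 ± 0.09 (adjusted p = 0.00132) and a second of Adm at -1.15 ± 0.14 (adjusted p = 0.00251). Probe sets of a gene share the samples and often the transcript, so they are not independent replicates.

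**Figure D4:**
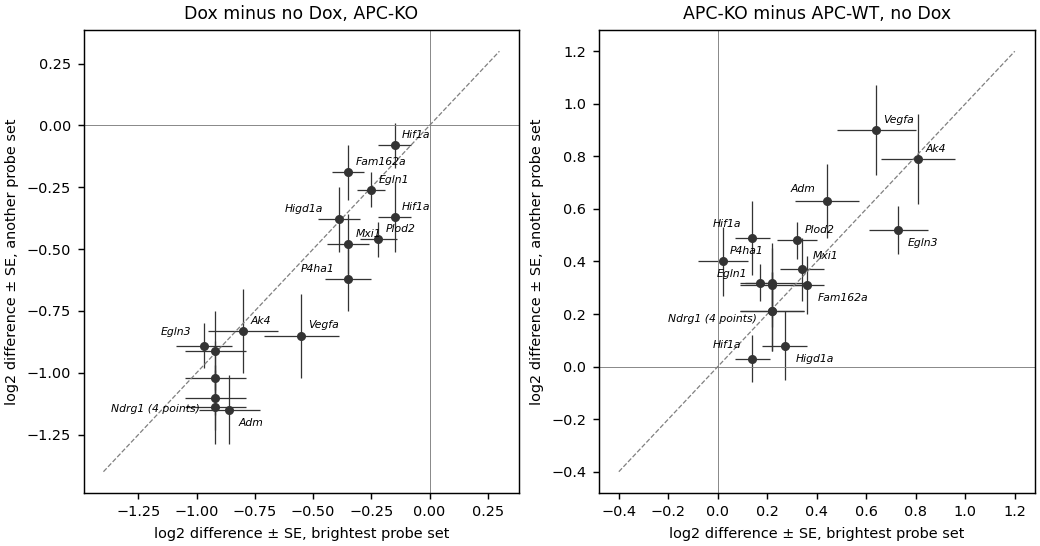
Log2 differences (± SE) of the 16 further probe sets above the floor, from 12 genes, against the brightest probe set of the same gene. Panels show Dox in APC-KO tumours (left) and APC-KO over APC-WT without Dox (right), with a dashed line where both are equal. All 16 share the sign of the brightest probe set in both comparisons. Several differ more than their brightest one, among them those of Vegfa, P4ha1, Adm and Plod2 and 1 of Hif1a, and others differ less.

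Of 12 tested genes of the machinery that controls HIF and acts with it, none passed for Dox in APC-KO tumours in limma, 2 had an unadjusted p under 0.05, and the median difference was 0.02. Without Dox, Eloc, a subunit of the Vhl ligase, was higher in APC-KO tumours, by 0.22 ± 0.07 (adjusted p = 0.0324). Under Dox, Vhl itself was lower in APC-KO tumours (-0.27 ± 0.06, adjusted p = 0.00914), and in APC-KO tumours its Dox difference was -0.16 ± 0.06 (adjusted p = 0.303). Of 14 other tested hypoxia-responsive genes, 1 fell under Dox in APC-KO tumours, with a median of -0.24, and it was Ero1a, an oxidase of protein folding, at -0.97 ± 0.18 (adjusted p = 0.0325). Hmox1, haem oxygenase, and Errfi1, an inhibitor of the EGF receptor, differed by -1.26 ± 0.32 and -0.58 ± 0.12 there (adjusted p = 0.111 and 0.0594). Without Dox, 1 of the 14, the glycogen synthase Gys1, was higher in APC-KO tumours, by 0.27 ± 0.07 (adjusted p = 0.0146). Under Dox, Wsb1 was higher and Ero1a lower in APC-KO tumours, with differences of 0.20 ± 0.07 and -0.57 ± 0.18 (adjusted p = 0.0492 and 0.0427). Of all genes tested, 13.8% passed as higher and 11.1% as lower for genotype without Dox, and 11.9% and 7.99% with it. The genotype counts of both lists are thus near or below the background. For Dox in APC-KO tumours, 0.506% of all genes passed as lower.

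The glycolytic targets of HIF were set beside the genes outside glycolysis. Under Dox in APC-KO tumours 8 of 15 tested genes of glycolysis and glucose uptake fell, with a median of -0.43, where 0.506% of all genes passed as lower. In APC-KO over APC-WT tumours without Dox, however, 4 were higher and 3 lower, with a median of 0.00, where 14 of the 27 genes outside glycolysis were higher and none lower. Of all genes, 13.8% passed as higher and 11.1% as lower in that comparison. Under Dox 8 of the 15 were lower in APC-KO tumours, with a median of -0.25, against 2 of the 27 and 7.99% of all genes. The difference between the lists was not tested. On the plot of list means the glycolysis values of APC-WT no-Dox tumours, 0.00 to 0.22, overlapped those of APC-KO no-Dox tumours, 0.13 to 0.24, and for the 27 genes they did not.

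**Figure D5:**
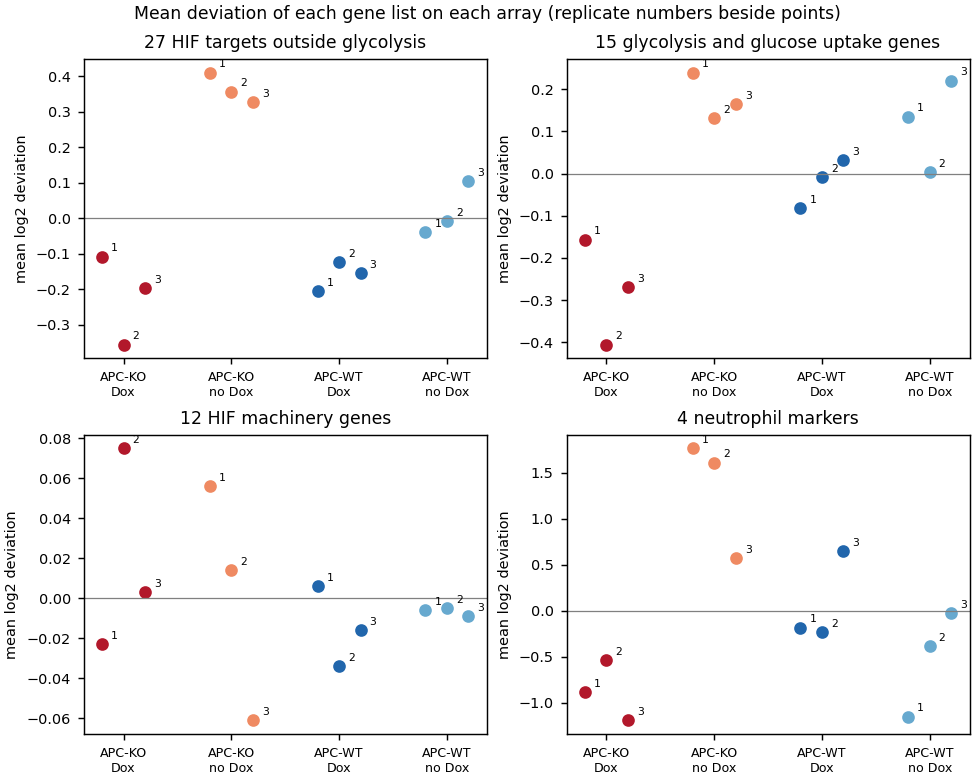
Mean over each list of the genes' log2 deviations from their own 12-array means, for each array (points, with replicate numbers), in 4 panels with separate scales. The 27 genes outside glycolysis are at 0.33 to 0.41 in APC-KO tumours without Dox and at -0.36 to -0.11 with Dox, the 12 machinery genes stay within -0.06 to 0.08, and the neutrophil markers span -1.19 to 1.77.

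Markers of other cells moved with some of these contrasts. Of 8 neutrophil markers 6 were measured and 4 tested, with Cxcr2 and Mmp8 under the floor. S100a8 and S100a9, the calprotectin subunits, fell under Dox in APC-KO tumours, with differences of -4.07 ± 0.64 and -4.30 ± 0.70 (adjusted p = 0.0113 and 0.0133), and all 4 tested markers were higher in APC-KO tumours without Dox. The other 2, Csf3r and Mmp9, did not pass for Dox in APC-KO tumours. There Csf3r had 6.92, 6.94 and 6.85 with Dox and 7.16, 7.18 and 6.89 without it. Mmp9 had 9.47, 9.35 and 9.71 with Dox and 9.76, 9.79 and 9.63 without it. The mean log2 level of the 4 tested markers was 6.11 to 6.76 in APC-KO tumours with Dox and 7.87 to 9.07 without it, against 7.07 to 7.95 with Dox and 6.15 to 7.27 without it in APC-WT tumours. By group medians, this mean and the mean deviation of the 27 genes were both highest in APC-KO tumours without Dox (8.912 and 0.356). Both were lowest in APC-KO tumours with Dox (6.415 and -0.198). In APC-WT tumours they were 7.116 and -0.156 with Dox and 6.914 and -0.008 without it.

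Under Dox in APC-KO tumours 1 of 8 macrophage markers (Cd14, -0.48 ± 0.09, adjusted p = 0.0375) was lower, and none of 9 endothelial and pericyte, 9 fibroblast, 5 T cell or 3 epithelial markers passed. Among the last, Krt8, a keratin of the tumour cells, had 9.02, 7.20 and 8.57 in APC-KO tumours with Dox and 10.09, 9.13 and 9.58 without it. These did not overlap, and the difference was -1.34 ± 0.41 (adjusted p = 0.188). In APC-KO over APC-WT tumours without Dox, 2 macrophage markers and 1 of endothelium and pericytes (Rgs5) were higher, and 4 T cell markers and 1 epithelial marker (Krt8) were lower. Of all genes, 13.8% passed as higher and 11.1% as lower there. Under Dox, the same comparison gave 5 endothelial and pericyte, 2 fibroblast and 1 epithelial marker higher, and 1 endothelial, 1 macrophage, 2 neutrophil and 3 T cell markers lower. Those 2 neutrophil markers were S100a8 and S100a9. Of all genes, 11.9% passed as higher and 7.99% as lower in this comparison under Dox. For Csf3r and Mmp9 every APC-KO value lay above every APC-WT value there, and neither passed. The mean level of the endothelial list was 7.57 to 7.64 in APC-KO tumours with Dox and 7.56 to 7.62 without it. The array's control probe set for 18S ribosomal RNA also followed the groups, at 9.34 to 9.61 in APC-KO tumours with Dox and 9.80 to 10.17 without it, against 9.39 to 9.61 with Dox and 9.46 to 9.59 without it in APC-WT tumours. The part of cell composition and of this RNA measure in the differences of the 27 genes was not tested.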

How the data were processed

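RNA of 12 tumours in 4 groups of 3 was measured on Affymetrix mouse arrays. The values are the log2 expression values deposited by the authors, from 1.86 to 14.16. That they are log2 was read from the values. MAS5 is named without a version, per the submitters' processing notes, and the sources used here do not give its settings. Groups were taken from the sample labels.

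The table held 45101 probe sets, 64 of them controls. By the platform annotation 34945 had 1 gene symbol, 932 several and 9160 none, and 34741 of the first were updated through Entrez identifiers. Each of 18193 genes was represented by its brightest such probe set. Genes were tested where the mean over all 12 arrays was at or above 5.55, which kept 11070. This is a filter and not a measured background.

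A group-means model over all arrays was fitted with limma 3.58.1 in R 4.3.3 (lmFit, eBayes with trend). The 5 comparisons were tested 2-sided and p-values were adjusted over all tested genes by the Benjamini-Hochberg method, with a threshold of 0.05. Errors are standard errors of the fit unless SD is named. Since 0.1 is the smallest p of an exact test of 3 against 3 arrays, genes were tested only in this model. Signal and the number of arrays limit the precision. On data simulated for Dox in APC-KO with 11070 genes, 200 of them changed, 99% of genes changed by 1 (log2) and 87% of those changed by 0.5 were recovered, with 7.5% false calls. The simulated scatter was independent between genes, with no array effects shared by genes, and in the data 60 genes passed. These shares are therefore not the power of the real comparison, in which Vegfa at -0.55 and Ddit4 at -0.69 did not pass.

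The members, roles, lists and tests were chosen with earlier results of these data known. Values on every array are given for members that passed in any comparison and for the 3 with the largest difference in each. Hif1a was added to these as the factor subunit itself, after its values were seen. Alternatives were eBayes without a trend, the mean of a gene's probe sets, only the groups compared, array weights, quantile normalization, no filter, a filter at the 75th percentile (7.81), a replicate block, and leaving out each array in turn. Whether replicate numbers pair the samples was checked on deviations from the group means. For the 18 pairs of arrays with the same number the correlation was -0.22 to 0.17 and exceeded 0.1 for 3, so the numbers were not taken to pair samples. Promoter windows and coordinates are from RefSeq on GRCm38.p6, and 1627 of 1627 overlapping windows of opposite strands were reverse complements of each other. Figures were drawn with matplotlib 3.10.9.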

Additional observations from a re-analysis of the deposited data

How the results depend on the processing

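The counts of genes that passed depended on single arrays and on some settings of the fit. For Dox in APC-KO tumours, where 10 passed, leaving out 1 array gave 0 to 11, and a filter at the 75th percentile, which tests 17 of the 27 genes, gave 5. For APC-KO over APC-WT without Dox, where 14 passed, the ranges were 8 to 16 and 9. For genotype under Dox, where 4 passed, leaving out 1 array gave 0 to 7, fitting only the groups compared gave 9 and array weights gave 11. The calls over all genes rose there too, from 1320 higher and 885 lower. They were 1576 and 1052 with only the groups compared, and 2082 and 1428 with array weights. For Dox in APC-WT tumours, where none passed, leaving out 1 array gave 0 to 1 (Plod1, without APC-WT no-Dox replicate 3), fitting only the groups compared gave 1 (Ddit4, -0.39 ± 0.06, limma adjusted p = 0.0477) and array weights gave 2 (Pgf and Plod1). For the interaction, where none passed, the range was 0 to 3. The 3 came without APC-WT no-Dox replicate 3, where 74 of all genes were higher and 45 lower. The other settings kept each count within 1.5 times.

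With a replicate block the 5 counts were 10 for Dox in APC-KO, 0 for Dox in APC-WT, 13 for genotype without Dox, 6 for genotype with Dox and 0 for the interaction. The numbers were not taken to pair samples. For the named genes, 36 differences were recomputed 694 times in all: 602 kept their side of the threshold, 82 lost the call, 10 gained one and none changed sign.

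The member median ranged from -0.57 to -0.35 for Dox in APC-KO and from 0.25 to 0.35 for genotype without Dox over the alternatives. Over all genes, Dox in APC-KO gave 56 lower calls, against 29 when the trend was dropped, 35 when a gene's probe sets were averaged and 35 when the fit held the compared groups alone. Dox in APC-WT gave 1 higher and 2 lower, against 257 and 396 with array weights and 1 and 17 with only the groups compared. Quantile normalization changed the split of higher and lower calls for genotype without Dox to 1471 and 1480, against 1525 and 1228. Genes near the floor of 5.55 (Adm, Angpt2, Lox and Stc2) can hide a change or its size. The causes of these shifts were not tested.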

Other observations

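Among the 27 genes, 2 had a dimmer probe set that passed for genotype under Dox where the brightest one did not. For Higd1a, a second probe set at a mean of 6.44 differed by -0.60 ± 0.13 between APC-KO and APC-WT tumours (limma, adjusted p = 0.00539 over all probe sets), against 0.07 ± 0.09 on the brightest. For P4ha1, a second at a mean of 7.87 differed by -0.49 ± 0.13 (adjusted p = 0.0246), against -0.27 ± 0.11. A second probe set of Egln1 passed for genotype without Dox at 0.32 ± 0.07 (adjusted p = 0.00638), where the brightest differed by 0.17 ± 0.06.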
